A study of Paeonia lutea x Paeonia suffruticosa with 9 samples.

Results

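The floral meristem stage of tree peony buds was marked by a group of 200 transcripts that were higher in all 3 of its libraries than in every library of the vegetative stage before it and the floral organ stage after it. The members were chosen among the 137758 transcripts deposited for the cultivar ‘High Noon’. With 1 added to each FPKM value (fragments scaled for transcript length and library size), the lowest stage II library had to reach at least 1.5 times the highest library of stages I and III. The files list more transcripts than the non-redundant set that the paper describes, and near-identical transcripts may be among them. Transcripts that the study lists as floral development genes were left out. The rule was met by 250 transcripts, and the 200 with the largest ratio were kept. The members were thus chosen by the FPKM levels of all 9 libraries, so stage II is only described against the other stages and was not tested against them.

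The buds came from ‘High Noon’ plants labelled as 5 years old. The cultivar is a hybrid of Paeonia suffruticosa and Paeonia lutea that flowers again in the same year. The study set 3 stages by sections of parallel buds, after scales and leaves had been removed, namely stage I (vegetative meristem, libraries S1_1 to S1_3), stage II (floral meristem, S2_1 to S2_3) and stage III (floral organ, S3_1 to S3_3). These names are those of the paper's methods. Its overview figure describes stage II otherwise, as the bud stage in which floral organs became differentiated. All plants were of 1 cultivar, and the labels name no treatment. The sequenced buds are not the sectioned ones, and the labels do not say how many buds went into a library. A lower level in a bud library can come from fewer cells of a type or from less RNA per cell, which cannot be told apart.

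A vegetative shoot apex makes leaves from a dome of dividing stem cells. For tree peony the paper writes of the shoot apical meristem turning into a floral bud. In a floral meristem LFY and AP1 set floral identity. Its cells then give rise to sepals, petals, stamens and carpels under combinations of MADS-box proteins. The floral meristem is thus a passing state, and genes can be high in it and lower on either side. The genes behind the 200 members are not known here. The study deposited its annotation of the transcripts elsewhere, and neither it nor their sequences were analysed here. Members are described by rank, rank 1 having the largest ratio.

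The totals were 20065002 to 25195520 fragments per library. The 26 listed floral transcripts were read by stage. The paper lists them as differentially expressed in these same data, so they are no independent check of the stage labels. AP1 (c128329), a meristem identity gene, had mean levels of 0.39 FPKM at stage I, 4.49 FPKM at stage II and 11.4 FPKM at stage III. PI (c9787), which specifies petals and stamens, had 0.05, 1.68 and 45.3 FPKM in the same order. Its stage II mean rested mainly on S2_1, with 4.02, 0.42 and 0.59 FPKM in S2_1, S2_2 and S2_3. The other PI transcript (c42964) had 3.86, 0 and 0 FPKM there. LFY and both UFO transcripts were also highest on average in stage III. Of the 26, 15 had their highest mean in stage III, 6 in stage II and 5 in stage I, and 0 would have met the rule. The closest was ATH1, a homeodomain regulator of the shoot apex, with a ratio of 1.11. Its FPKM was 3.28, 2.45 and 2.28 in stage I, 8.75, 5.96 and 8.17 in stage II and 5.11, 5.26 and 4.78 in stage III. ICU2, the catalytic subunit of DNA polymerase alpha, and both RPI2 transcripts were also highest on average in stage II, with ratios of 0.798, 0.812 and 1.07. As only 250 of all 137758 transcripts met the rule, 0 of 26 is no result about floral genes.

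Together the members held 0.0827% ± 0.0520 of all fragments at stage I. They held 0.877% ± 0.0855 at stage II and 0.350% ± 0.0541 at stage III (SD, n = 3 libraries each). In stage I the shares were 0.140% in S1_1 (95% Wilson confidence interval 0.138 to 0.141%), 0.0705% in S1_2 (0.0694 to 0.0717%) and 0.0379% in S1_3 (0.0371 to 0.0388%). In stage II they were 0.966% (0.963 to 0.970%), 0.796% (0.793 to 0.800%) and 0.867% (0.863 to 0.871%) in S2_1, S2_2 and S2_3. In stage III they were 0.299% (0.297 to 0.302%), 0.345% (0.342 to 0.348%) and 0.407% (0.404 to 0.410%) in S3_1, S3_2 and S3_3. Relative to its mean the share varied most at stage I, while in absolute terms its SD was the smallest of the 3 stages. The intervals cover counting error only and not the spread between libraries. As reads from PCR are not independent molecules, they may be too narrow even for that.

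**Figure D1:**
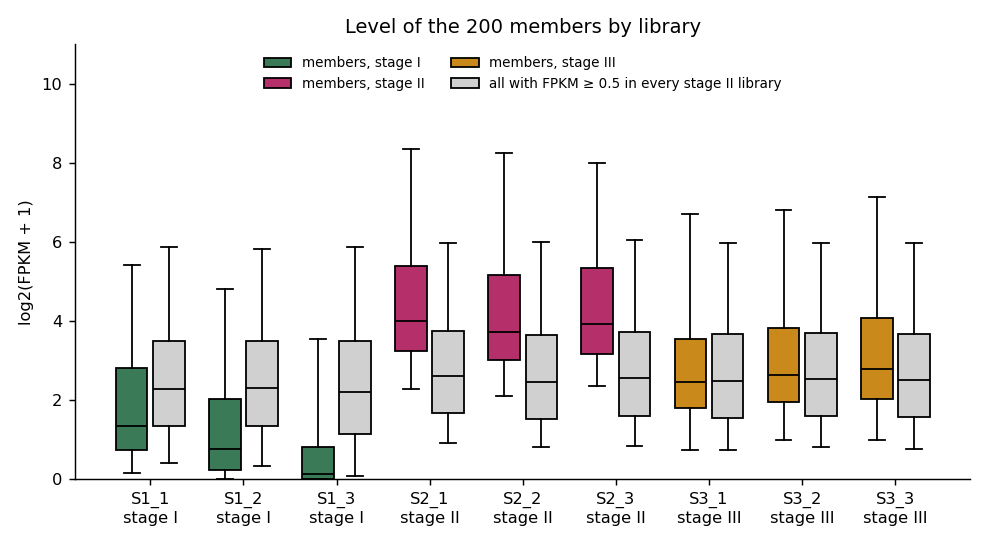
Levels of the 200 members (coloured boxes) and of the 53130 transcripts at 0.5 FPKM or more in each stage II library (grey boxes) in the 9 libraries, as log2(FPKM + 1). Boxes span the quartiles with the median as a line, and whiskers reach the 5th and 95th percentiles. The median member had 0.095 to 1.57 FPKM in the stage I libraries, 12.2 to 15.1 in those of stage II and 4.47 to 5.92 in those of stage III, while the grey boxes stayed at medians of 3.63 to 5.08.

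Relative to stage II, most members were low in stage I and intermediate in stage III. The median member had 5.81% of its stage II mean in stage I (quartiles 2.99 and 12.7%) and 38.7% in stage III (quartiles 33.7 and 42.0%). For comparison, 53130 transcripts were at 0.5 FPKM or more in each stage II library, the level that the rule requires, and are called the expressed transcripts here. Their median was 84.3% in stage I and 97.5% in stage III. In stage I, 90 members were under 5% of their stage II mean, 50 were at 5 to 10%, 32 at 10 to 20% and 28 at 20% or more. In stage III, 11 were under 20%, 25 at 20 to 30%, 83 at 30 to 40%, 73 at 40 to 50% and 8 at 50% or more. The rule was limited by stage III rather than stage I for most members, since the highest library outside stage II was a stage III library for 185 of the 200, S3_3 alone for 129.

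The ratio itself was modest for most members. It ranged from 1.54 to 6.24 with a median of 1.70, and 26 members reached 2, while 3 members reached 2.5. The limit of 200 passed through closely spaced values. Rank 200 had a ratio of 1.544 with 6.15 to 7.70 FPKM in stage II and at most 3.63 FPKM elsewhere, and the transcript next in order had a ratio of 1.542 with 21.5 to 27.2 FPKM in stage II and at most 13.6 elsewhere. Between these neighbours there is no break in the values.

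Rank 1, transcript i1_LQ_HNbud_c242142/f1p3/1036, was the member given reads in stage II and in no other stage. Its FPKM was 5.24, 6.52 and 6.57 in S2_1, S2_2 and S2_3, from 99.4, 119 and 101 reads, and it was listed at 0 in the other 6 libraries. Its mean in stage II was at least 31.7-fold higher than in stage I and at least 32.4-fold higher than in stage III, taking 3 reads per library as the floor. It was the only one of the 53130 expressed transcripts that was at 0 in all 6 libraries of the other stages. Its counts were not whole numbers, so RSEM, which divides a read that fits several similar transcripts between them, had shared its reads with others, and the zeros depend on that division.

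Rank 2, transcript i1_HQ_HNbud_c93301/f2p9/1475, had 0.43, 0.27 and 0.11 FPKM in stage I, 11.9, 11.2 and 18.9 in stage II and 3.13, 3.07 and 2.84 in stage III. The 3 stages did not overlap, and the stage II mean was 51.8-fold that of stage I and 4.64-fold that of stage III. Rank 3 had the same shape at 0.88, 0.06 and 0 FPKM in stage I, 12.9, 10.2 and 10.7 in stage II and 2.97, 3.40 and 3.26 in stage III. Its single stage I library with more than 2 reads was S1_1, with 32.1 reads.

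Other members of the first 10 differed mainly in how far stage I was down. Rank 4 was the most abundant of them, with 48.6, 28.5 and 2.95 FPKM in stage I, 166, 158 and 120 in stage II and 35.0, 43.8 and 44.8 in stage III. Rank 6 had 16.2, 8.23 and 1.62 FPKM in stage I, 53.3, 38.4 and 40.6 in stage II and 8.13, 8.28 and 8.46 in stage III. In both, stages I and III overlapped and the stage I libraries were spread over more than the whole range of stage III. Rank 10 had 7.56, 1.70 and 0 FPKM in stage I, 104, 68.4 and 87.0 in stage II and 24.4, 29.3 and 29.7 in stage III, so that stage III lay clear of stage I. Ranks 5, 7 and 8 had stage II means of 18.2, 8.91 and 29.4 FPKM, which were 2.92-fold, 3.94-fold and 3.37-fold those of stage III and 6.75-fold, 7.48-fold and 17.7-fold those of stage I. Rank 9 was listed at 0 in all of stage I and had 4.66, 4.27 and 8.48 FPKM in stage II and 0.09, 0 and 1.33 in stage III.

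**Figure D2:**
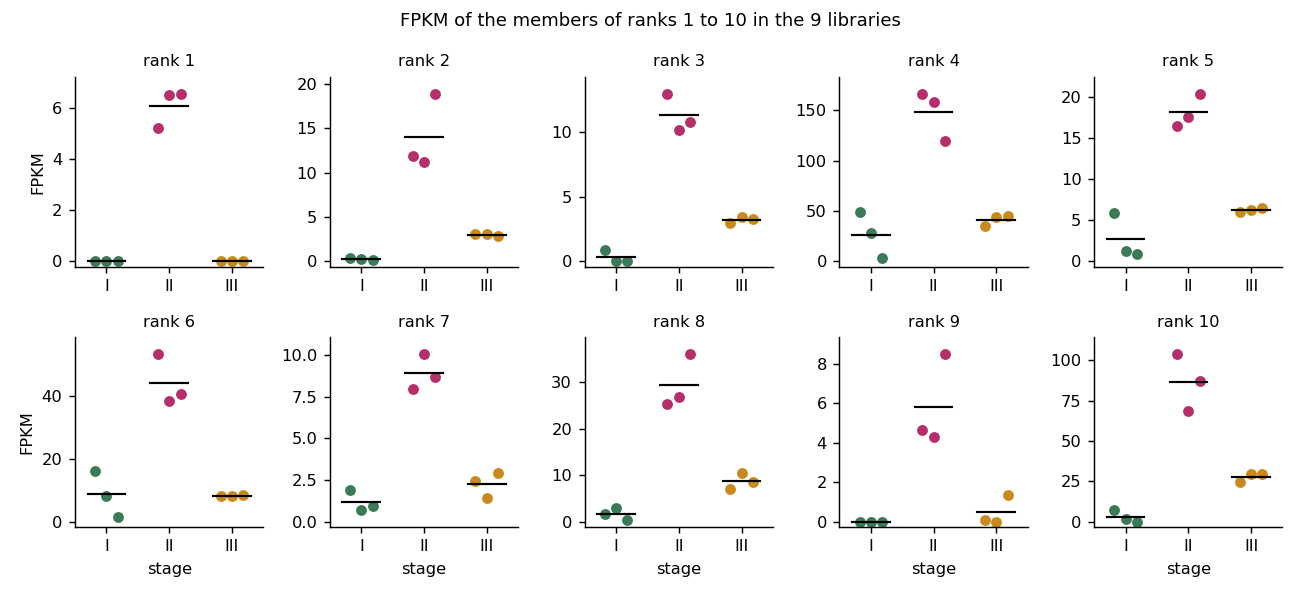
FPKM of the members of ranks 1 to 10 in the 9 libraries, with 1 panel per member, stages I to III on the x axis, points for libraries in the order of their replicate numbers and a line for the stage mean (n = 3). Rank 1 is at 0 outside stage II, rank 2 has a flat stage III at 2.84 to 3.13 FPKM, and ranks 4 and 6 show stage I points spread from 2.95 to 48.6 and from 1.62 to 16.2 FPKM.

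The 5 members with the highest stage II means were short transcripts of 694 to 759 bp. Rank 191 (712 bp) was the most abundant of all members, at 34.5, 8.66 and 2.49 FPKM in stage I, 1329, 1104 and 917 in stage II and 386, 375 and 590 in stage III. The other 4 were close to each other in stages II and III. Rank 152 had a mean of 667 ± 108 FPKM in stage II and 280 ± 71.6 in stage III (SD, n = 3). Rank 72 had 657 ± 56.1 and 265 ± 71.9, rank 123 had 653 ± 58.0 and 267 ± 79.7, and rank 180 had 616 ± 89.3 and 264 ± 75.1 FPKM in the same order. They differed in stage I, where rank 152 had 248, 53.1 and 6.60 FPKM and rank 72 had 142, 130 and 36.1. None of the 5 had whole counts in all 9 libraries, so reads were divided between them and similar transcripts, among which other members may be. These 5 held 19.1% of the members' fragments in stage II, and the 22 members with a mean of at least 100 FPKM held 50.1%.

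In FPKM, which divides by length, shorter transcripts were the more abundant, in the members as in the other transcripts. Of the 200, 47 were shorter than 1000 bp, with a median of 51.5 FPKM in stage II, 114 were of at least 1000 but under 2000 bp, with a median of 14.4, and 39 were of 2000 bp or more, with a median of 10.6. Among the 53130 expressed transcripts, the medians of the same classes were 10.7, 4.83 and 3.74 FPKM. Members under 1000 bp made up 23.5% of the group, against 17.4% of the 53130, and members of 2000 bp or more 19.5%, against 32.2%. A mean of at least 100 FPKM in stage II was reached by 11% of the members (15 of these 22 were shorter than 1000 bp), against 3.24% of the 53130. A rule that adds 1 to each FPKM gives low transcripts small ratios, and how far this set the abundance of the members was not tested.

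**Figure D3:**
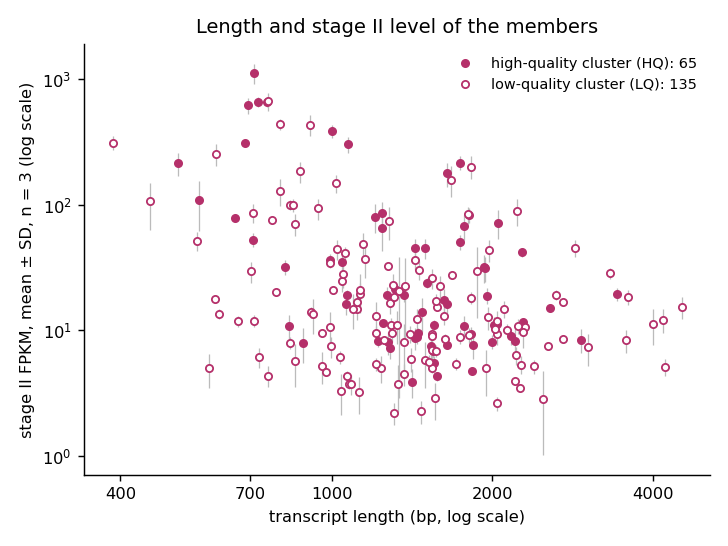
Transcript length (x axis, bp, log scale) and stage II level (y axis, mean FPKM of 3 libraries with bars of 1 SD, log scale) of the 200 members, with filled points for high-quality and open points for low-quality long-read clusters. The 5 highest members lie between 694 and 759 bp, and 0 of the 39 members of 2000 bp or more reached a mean of 100 FPKM.

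The identifiers also record how the long reads, made from a mixture of bud RNA, supported each transcript. The median length of the members was 1385.5 bp (range 387 to 4542 bp), against 1595 bp for the 53130. A high-quality consensus (HQ in the identifier) was given to 65 members, or 32.5%, against 27.2% of the 53130. Most members, 121 or 60.5%, rested on 1 full-length read, against 68.3%, and 19 members, or 9.5%, had at least 10 such reads, against 5.13%. The best supported was rank 89 with 104 full-length reads, chosen after its values were seen. It had 2.38, 0.58 and 0.15 FPKM in stage I, 58.2, 47.5 and 45.0 in stage II and 20.5, 20.6 and 25.8 in stage III. No test was made of these shares.

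By the same ratio of 1.5, with the 26 listed transcripts left out, 250 transcripts peaked in stage II, against 2294 in stage I and 478 in stage III. The first 200 with a stage II peak had a median peak level of 13.9 FPKM, against 66.2 FPKM for the stage I peaks and 26.2 FPKM for the stage III peaks. Their median length was 1385.5 bp, against 1206 bp and 1313.5 bp. With 1 library left out, stage II peaks stayed fewer than stage I peaks throughout, and fewer than stage III peaks except without S2_2, when there were 697 at stage II and 608 at stage III. The first 200 were taken from 250, 2294 and 478 transcripts, so the lists were cut at unlike depths. Adding 1 to each FPKM gives low transcripts small ratios, so a deeper cut favours higher levels. How far this sets the peak levels apart was not tested. No test was made between these lists.

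In stage I the libraries fell in the same order for most members. S1_1 was the highest stage I library in 170 of the 200 members (85%) and S1_3 the lowest in 152 (76%). Among the 53130 expressed transcripts the same shares were 30.4% and 46.1%. The full order S1_1 above S1_2 above S1_3 held in 140 members, or 70%, against 21.3%. Relative to the stage II mean, the median member had 10.7% in S1_1, 4.16% in S1_2 and 0.611% in S1_3, while the medians of the 53130 were 81.8, 80.6 and 78.8%. S1_3 was listed at 0 for 68 members, S1_2 for 24 and S1_1 for 9. The median coefficient of variation of the members was 0.9996 at stage I, 0.161 at stage II and 0.175 at stage III, against 0.332, 0.169 and 0.139 for the 53130. The spread of stage I was thus of another size than that of stages II and III, in the members more than in the 53130. It is not particular to the members. The stage I value was 0.925 for the first 200 transcripts peaking at stage III by the same ratio, and 0.285 for those peaking at stage I. The members' medians in the stage I libraries were only 0.095 to 1.57 FPKM, and how far this low level widens the spread was not tested. How far the age of the buds, the amount of tissue or the RNA of these libraries sets this order was not tested.

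In the other stages the order was less even. S2_1 was the highest stage II library in 121 members (60.5%), against 43.7% of the 53130, and S2_2 the lowest in 118 (59%), against 43.6%. S3_3 was the highest stage III library in 137 members (68.5%), against 31.7%, and S3_1 the lowest in 142 (71%), against 36.4%. Leaving out S3_3 raised the number of transcripts that met the rule to 597, of which 107 members were among the first 200. Leaving out S1_3 gave 260, with 192 members among the first 200.

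To read the peak in libraries that had not chosen it, the 200 were chosen anew without 1 stage II library and then measured in it. The ratio of the library left out to the highest library of stages I and III had a median of 1.93 in S2_1 (quartiles 1.28 and 2.43), 1.43 in S2_2 (1.21 and 1.83) and 1.85 in S2_3 (1.59 and 2.28). It was above 1 for 178, 183 and 189 of the 200 and at least 1.5 for 136, 91 and 164. Of the transcripts at 0.5 FPKM or more in the other stage II libraries, 20.4% were above 1 in S2_1, 13.6% in S2_2 and 18.5% in S2_3, and 2.41%, 1.18% and 2.39% reached 1.5. The library left out thus lay above both other stages for most of the chosen transcripts, though in S2_2 fewer than in the other libraries reached the limit. The libraries of stages I and III were the same in the choice and in the reading, so that these shares are a description.

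**Figure D4:**
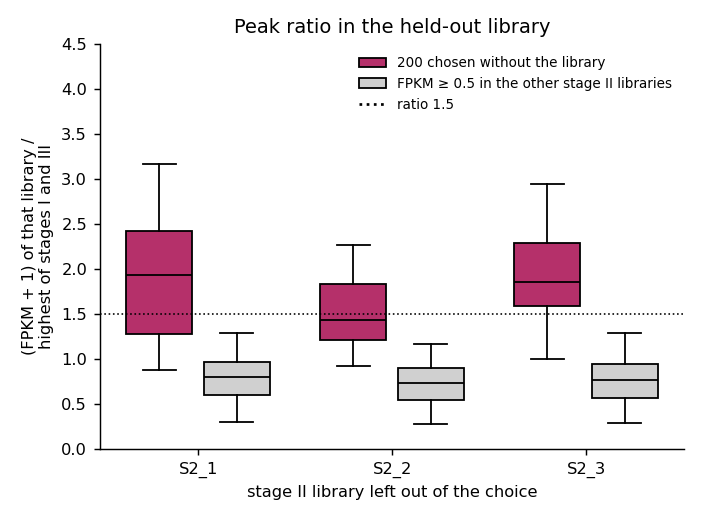
Peak ratio (y axis, FPKM + 1 of the stage II library left out of the choice over the highest of stages I and III) for the 200 transcripts chosen without that library (coloured) and for all at 0.5 FPKM or more in the other stage II libraries (grey). Boxes span the quartiles with the median as a line, whiskers the 5th and 95th percentiles, and the dotted line is the ratio of 1.5. The coloured medians are 1.93, 1.43 and 1.85, and the grey ones 0.794, 0.736 and 0.762.

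The rule sets no order between stages III and I, and edgeR was run on them over all transcripts. The rule did use the levels of these 6 libraries, however, as the highest of them is its denominator, so the counts and q values of the members describe the chosen group and are no independent evidence. The stage III libraries were all above those of stage I for 158 members and all below for 1, and they overlapped for 41. The stage III mean was above the stage I mean in 191 members, or 95.5%, against 58.5% of the 53130. Stage III was thus clear above stage I in 79% and clear below in 0.5% of the 200 members, against 34.9% and 18.5% of the 53130. A filter on low counts in the 6 libraries of stages III and I left 65124 transcripts, 192 members among them. The same shares were 81.2% and 0.521% of these 192, against 31.2% and 19.2% of the 65124. The rule capped both stages below stage II.

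At the study's criterion, a fold change over 2 with a q value (Benjamini-Hochberg adjusted p) under 0.001, edgeR's quasi-likelihood test called 0 of the 192 members, where 0.00614% of all transcripts were called. The smallest q of a member was 0.00308 in edgeR, and 129 members had an unadjusted p under 0.05, of which 128 were higher and 1 lower in stage III, where 21% of all transcripts were higher and 19.6% lower (40.7% in all). DESeq2 called 53 members at this criterion, all higher in stage III, where it called 8.1% of all transcripts higher and 7.38% lower (15.5% in all). On log2(FPKM + 1), limma called 18 of 184 members, all higher, where it called 2.04% of all transcripts higher and 0.828% lower (2.87% in all). With the q limit set at 0.05 and the same fold, edgeR called 77 members higher in stage III and 0 lower, where 11.9% of all 65124 transcripts were called higher and 10.3% lower (22.2% in all). DESeq2 then called 116 members, all higher, where 14.2% of all transcripts were higher and 13% lower (27.3% in all). In limma 133 members were called, all higher, where 16.3% of all were higher and 8.08% lower (24.4% in all). The 77 of edgeR are 40.1% of the members tested, and the libraries of stages III and I did not overlap in any of them. The median log2 fold change of the 192, stage III minus stage I, was 2.63, against 0.02 over all transcripts tested, and it was 2.63 also with the members at 0 in stage I set to a floor of 3 reads per library, since they stay above it. Of the 192, 22 had under 10 reads in every stage I library and passed the filter through stage III, so that they had to differ. Counting only transcripts with at least 10 reads in some library of each of the stages III and I, a choice made after the values were seen, 57 of 170 members were called higher and 0 lower, or 33.5%, against 10% higher and 9.84% lower of 62072 transcripts. The other 8 members did not pass the filter.

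The number called depended on single libraries of both stages. At a q value under 0.05 it was 123 without S1_1, 30 without S1_2 and 118 without S1_3. Members higher in stage III were 61.6%, 15.2% and 59.7% of those tested in these fits, against 10.5%, 8.19% and 16.6% of all transcripts. The number was 21 without S3_1, 21 without S3_2 and 18 without S3_3, or 10.7%, 10.8% and 9.28%, against 5.01%, 5.22% and 4.4% of all transcripts. Of the 77 members called with all libraries, 18 were called whichever library was left out, and the other 59 were lost without at least 1. Nothing in the labels says that the libraries came from separate plants, so these tests measure the spread between libraries.

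**Figure D5:**
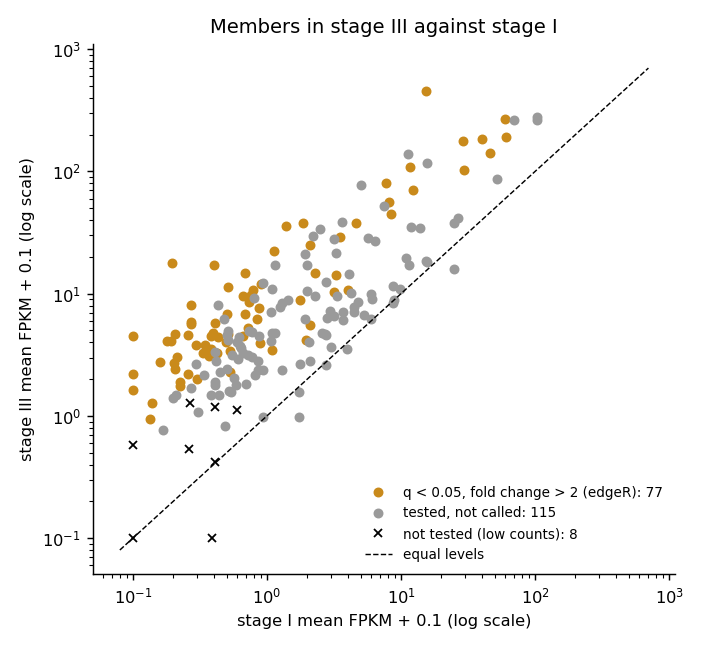
Mean FPKM of each member in stage III (y axis) against stage I (x axis), each with 0.1 added and on a log scale, n = 3 libraries per stage. The 77 members called by edgeR at a q of less than 0.05 and a fold above 2 are coloured, 115 tested members that were not called are grey, and the 8 not tested are crosses. The coloured points all lie above the dashed line of equal levels.

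The members with the largest rises from the test were those with next to no reads in stage I. Rank 127 had 1.68, 1.54 and 1.33 FPKM in stage III and was listed at 0 in all 3 stage I libraries (q = 0.00382 by edgeR). Stage III was at least 20.6-fold higher, with the floor at 3 reads per library. Ranks 12 and 91 were also at 0 in stage I and at least 19.7-fold and 19.4-fold higher in stage III (q = 0.00639 and 0.00961 by edgeR). All 3 calls held whichever library was left out. These members passed the filter through stage III alone, so they had to be higher there, and the calls add no support. For all 3, the counts were not whole, and the fold above the floor depends on how RSEM divided the reads. Their stage II levels were 3.39 to 3.68 FPKM for rank 127, 8.09 to 9.51 for rank 12 and 13.0 to 15.5 for rank 91.

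Rank 51 had 16.8, 18.3 and 18.4 FPKM in stage III, against 0.29, 0 and 0 in stage I, with 7 reads in S1_1 and 0 in the other libraries of that stage. By edgeR it was called with q = 0.00477, and the call held whichever library was left out. Rank 51 too passed the filter through stage III, so it had to be higher there. The ratio of its summed reads, 1310 in stage III and 7 in stage I, scaled by library size, was 170 (exact binomial 95% interval 82.2 to 423). This interval covers counting error only and not the spread between libraries. In stage II it had 51.2, 35.3 and 48.5 FPKM. Rank 178 had 6.10, 20.4 and 24.5 FPKM in stage III, against 0.83, 0 and 0.07 in stage I (log2 fold change 5.71, SE 1.28, q = 0.0218 by edgeR), a call lost without S3_1, S3_2 or S3_3, at q values of 0.0538, 0.0732 and 0.0812. Rank 191, the most abundant member, was higher in stage III by 4.79 on the log2 scale (SE 0.93, q = 0.0142 by edgeR), and by the same test rank 123 was higher by 2.07 (SE 0.52, q = 0.0316). The call of rank 191 was lost without S1_2, S3_1 or S3_3, at q values of 0.0533, 0.0505 and 0.0563. That of rank 123 was lost without S1_2, S3_1, S3_2 or S3_3, at 0.105, 0.0784, 0.0783 and 0.108. Of the first 10, ranks 2 and 8 were called, with log2 fold changes of 3.34 (SE 0.49, q = 0.00632 by edgeR) and 2.30 (SE 0.60, q = 0.0341). The call of rank 2 held with each library left out, at q values up to 0.0368 in edgeR, while that of rank 8 was lost without S1_1, S3_1, S3_2 or S3_3, at 0.0937, 0.0888, 0.112 and 0.105.

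A different course was seen in a few members, in which stage III was below stage I by mean FPKM. There were 8 of these, and all but rank 6 were chosen after their values were seen. Rank 84 had all its stage III libraries below those of stage I, at 1.01, 0.78 and 0.83 FPKM against 1.16, 1.81 and 1.89. Its stage II libraries were at 4, 4.64 and 6.33 FPKM, and its log2 fold change of -1.02 between stages III and I (SE 0.38) had a q of 0.0949 in edgeR. Rank 38 had nearly level flanks, with 9.94, 8.37 and 7.87 FPKM in stage III, 9.61, 8.46 and 8.34 in stage I and 20.2, 24.4 and 28.9 in stage II. Rank 174, supported by 19 full-length reads, had 3.42, 3.30 and 3.64 FPKM in stage III, 4.39, 3.55 and 3.60 in stage I and 7.48, 8.07 and 9.01 in stage II. Rank 27 had 12.6, 10.8 and 24.2 FPKM in stage III, 33.6, 39.6 and 0.65 in stage I and 156, 80.2 and 81.9 in stage II. Ranks 38, 174 and 27 had log2 fold changes of -0.14, -0.27 and -0.68 between stages III and I, with q values of 0.647, 0.450 and 0.665 in edgeR. Rank 92 was listed at 0 in all of stage III and had 0, 0.27 and 0.59 FPKM in stage I and 1.72, 1.87 and 4.99 in stage II. The others of these 8 are rank 6, described above, and ranks 88 and 172, whose stages III and I overlapped.

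Shared reads touched most of the group. The counts of 186 members were not whole in at least 1 library (tolerance 0.005), and those of 14, or 7%, were whole in all 9 libraries, against 9.16% of the 53130. Whole counts show no division of reads, though RSEM can also assign an ambiguous read wholly to 1 transcript, which was not tested. Their stage I means were 1.44 to 23.2% of their stage II means (median 8.39%), and their stage III means were 14.9 to 46.8% (median 37.0%). S1_1 was their highest stage I library in 10 of 14, and stage III lay clear above stage I in 11 of 14. The rule caps both stages in these members as in the others. All 14 passed the filter on low counts, and edgeR called 4 of them higher with the q limit at 0.05, where 11.9% of all transcripts were called higher and 31.2% lay clear above.

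The 4 were ranks 8, 65, 128 and 163. Ranks 128 and 163 had under 10 reads in every stage I library. They passed the filter through stage III, so they had to be higher there. Rank 128 (666 bp) had 47, 38 and 51 reads in stage III, against 2, 2 and 0 in stage I, and 117, 98 and 101 in stage II. In the 3 stages these are 5.98, 4.74 and 5.84 FPKM in stage III, 0.25, 0.26 and 0 in stage I and 12.1, 10.4 and 12.9 in stage II (q = 0.00673 by edgeR). Over the summed reads, 136 in stage III and 4 in stage I, the ratio scaled by library size was 30.9 (exact binomial 95% interval 11.8 to 115, counting error only). Rank 8 (705 bp) had 61, 93 and 82 reads in stage III, against 15, 24 and 4 in stage I, and 270, 277 and 310 in stage II. Rank 65 (2284 bp) had 146, 193 and 245 reads in stage III, against 40, 10 and 1 in stage I, and 604, 584 and 428 in stage II (log2 fold change 3.36, SE 0.94, q = 0.0423 by edgeR). Rank 163 (834 bp) had 23, 39 and 52 reads in stage III, against 6, 2 and 0 in stage I, and 125, 96 and 88 in stage II (q = 0.0300 by edgeR), and the ratio of its summed reads was 12.9 (6.35 to 30.7). In each of the 4 the stages lay apart in the order stage I, stage III, stage II. The call of rank 128 held whichever library was left out. Those of ranks 65 and 163 were lost without S1_2, S3_1, S3_2 or S3_3, at q values of 0.105 to 0.129 and 0.0786 to 0.116. The most abundant member with whole counts, rank 161 (687 bp), had 107, 128 and 179 FPKM in stage III, against 28.5, 4.59 and 0.54 in stage I, and 322, 314 and 285 in stage II, and its log2 fold change of 3.54 (SE 1.16) had a q of 0.0658 in edgeR.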

How the data were processed

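Buds at 3 stages were sequenced by the authors as paired reads, with 3 libraries per stage. Reads were cleaned with ng_QC, aligned by bowtie2 against the polished long-read transcripts (no genome) and assigned to transcripts by RSEM. The deposited expected counts are fractional and not normalized. The deposited FPKM values were scaled by the authors for transcript length and library size. Tool versions for these steps are not given in the sources used here.

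Groups were taken from the sample labels. Members were chosen on FPKM + 1. Stage III was tested against stage I on the 6 libraries concerned, over all transcripts. Expected counts were rounded, kept by filterByExpr (minimum count 10, minimum total 15) and normalized by TMM, and tested by edgeR's quasi-likelihood F test, with p-values adjusted by Benjamini-Hochberg. An SE is the size of the log2 fold change over the root of its F value. R 4.3.3, edgeR 4.0.16, limma 3.58.1, DESeq2 1.42.0, Python 3.11.15, pandas 2.3.3, SciPy 1.17.1 and Matplotlib 3.10.9 were used. The tests were also run on simulated counts with the same dispersion for every transcript. The members vary far more than others in stage I, so that run cannot vouch for their fits. DESeq2, limma on FPKM, other size factors, other filters, other pseudocounts, all 9 libraries in 1 fit, a replicate block and each library left out were the alternatives.

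The members and lists were chosen with earlier results of these data known. Members described are ranks 1 to 10, the 5 with the highest stage II means, the 5 largest rises and falls of stage III against stage I among those called at a q value under 0.05 without overlap (there was no such fall), the last inside the limit, and those named as chosen later. Ranks 65, 128, 161 and 163 were also chosen after their values were seen. Identifiers are printed for ranks 1 and 2 only.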

Additional observations from a re-analysis of the deposited data

How the results depend on the processing

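The number of transcripts that met the peak rule (250) was 447 with a pseudocount of 0.1, 91 with a pseudocount of 5, 2271 on stage means and 26 at a ratio of at least 2, and 260 to 697 with a library left out. Of the 200 members, 88 stayed among the first 200 with a pseudocount of 5, 83 on stage means, 142 with a pseudocount of 0.1, 172 on TMM-normalized CPM, and 84 to 192 with a library left out, fewest without S2_2. The median ratio over the stage II libraries was 1.96, and 1.43 to 1.93 in a library left out of the choice. Members called between stages III and I at a q value under 0.001 (0 in edgeR) were 53 in DESeq2, 15 with all 9 libraries in 1 fit, 18 in limma on log2(FPKM + 1) and 0 to 4 with a library left out. At a q value under 0.05 (77 in edgeR) they were 116 in DESeq2, 124 with all 9 libraries in 1 fit, 133 and 124 in limma with pseudocounts of 1 and 0.1, and 18 to 123 with a library left out. With all 9 libraries in 1 fit 61% of the members were called higher, against 14% of all transcripts, and in limma with a pseudocount of 0.1 67.4%, against 18.1%. Stage III was lower in 2 of these calls with all 9 libraries in 1 fit, in 1 without S1_1 and in 1 without S1_3. The log2 fold change of rank 4 (0.54) was -0.047 without S1_3 and up to 1.25 (without S1_1), and that of rank 6 (-0.15) was 0.27 with the replicate block, 0.32 and 0.45 in limma, 0.62 without S1_1 and -0.70 without S1_3. No log2 fold change was reversed in the other 17 members for which all alternatives were run, ranks 27, 38, 65, 84, 89, 128, 161, 163 and 174 not among them. The labels do not say whether replicate numbers pair the samples. Deviations of stage I and III libraries with the same number correlated at -0.03, 0.07 and 0.03. Those with unlike numbers correlated at -0.07 to 0.03. Such correlations cannot show how the samples were taken. With the number as a replicate block, 24 members were called at a q value under 0.05, all higher (12.5%, against 6.11% of all transcripts), and 0 at 0.001.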
